A study of Homo sapiens with 4 samples.

Results

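The mitochondrial protein import machinery was described here through 33 genes, out of 18417 genes with a value on these arrays. Members were the genes with a TIMM or TOMM symbol followed by a digit, together with HSPA9, HSPD1, HSPE1, PMPCA, PMPCB, IMMP1L, IMMP2L, AIFM1, CHCHD4, GRPEL1, GRPEL2, PAM16 and DNAJC19, where a probe set names that gene alone. The rule uses symbols and no measured value, although it was set with earlier results of these data known. For a gene with several such probe sets the one with the highest mean over the 4 arrays was taken. Of 38 protein-coding genes that fit these symbols, 5 (TIMM23B, PAM16, TOMM5, TOMM6 and TOMM7) are named only by probe sets that also name another gene, and these are given apart from the 33. HT1080 cells, an established human fibrosarcoma line, spent 36 h under 21% oxygen (control) or 1% oxygen (hypoxia) in medium with little serum. Total RNA, and ER-RNA taken from an endoplasmic reticulum (ER) fraction isolated with a kit, were each hybridised to 1 array per condition. The study's methods state that cells used for fractions, ER isolation included, first received cycloheximide. They do not state this for total RNA, so the fractions may differ in this treatment too. Each of the 4 arrays carried RNA pooled from 5 experiments, so without replicates no spread between experiments and no p-value can be given.

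Nearly all mitochondrial proteins are made in the cytosol and carried into the organelle. Precursors are received by the TOM complex of the outer membrane, the only general entry gate, and then sorted. Proteins with a cleavable presequence pass through the TIM23 complex, pulled in by a motor built around the matrix HSP70 (HSPA9), and are then trimmed by peptidases and folded by the HSPD1-HSPE1 chaperonin. Metabolite carriers are escorted by the small TIM chaperones to the TIM22 complex, and small cysteine-rich proteins of the intermembrane space are trapped there by the CHCHD4 disulfide relay.

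Most import genes were lower in hypoxia in both fractions. In total RNA 28 of the 33 had a lower value in hypoxia (84.8%, against 46.8% of all 18417 genes), with a median log2 fold change of -0.42 over all 33. In ER-RNA 28 of the 33 were lower too (84.8%, against 43.3% of all genes), with a median of -0.62. In both fractions 26 members were lower and 3 were higher, TOMM20L, TIMM10B and GRPEL1. Median centring turned the small differences of GRPEL1 to negative values, and under the scalings tried 29 to 30 members were lower in total RNA and 27 to 29 in ER-RNA. Arrays compare equal amounts of RNA, so a lower value is relative to the other RNA on the array. All samples came from the same cultured fibrosarcoma line, and the amount of RNA per cell was not measured.

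Calls required a fold change over 1.4, a z-score beyond 3 in size and expression, meaning that 1 or both arrays exceeded their own 50% quantile. The z-score sets the log2 difference against the SD typical of genes at that level. In total RNA 6 of the 28 members that passed the expression filter fell, namely TOMM34, AIFM1, TIMM8A, TIMM17B, TIMM21 and HSPA9, and none rose. Among all 11530 expressed genes 7.45% were called lower and 2.32% higher in total RNA. In ER-RNA 9 of the 31 members that passed fell, namely AIFM1, TIMM8A, TIMM17A, TIMM21, TIMM50, HSPA9, HSPD1, HSPE1 and IMMP1L, and none rose. The background in ER-RNA was 8.25% called lower and 1.12% higher among 11876 genes. AIFM1, TIMM8A, TIMM21 and HSPA9 fell in both fractions, where 4.56% of the genes expressed in both were called lower in both. In either fraction 11 of the 31 members expressed in either were called lower, against 10.7% of 12555 genes. A gene high on 1 array only can pass the filter. In total RNA 6 members, 3 of them called (AIFM1, TIMM8A and TIMM21), passed through the control array alone (TOMM40L, AIFM1, TIMM8A, TIMM17A, TIMM21 and HSPE1) and none through the hypoxia array alone, and in ER-RNA this held for TOMM40L, AIFM1 and IMMP1L. With both arrays of a pair required to pass, 4 of 22 members fell in total RNA and 7 of 28 in ER-RNA, where 6.96% and 7.95% of all genes were called lower.

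**Figure D1:**
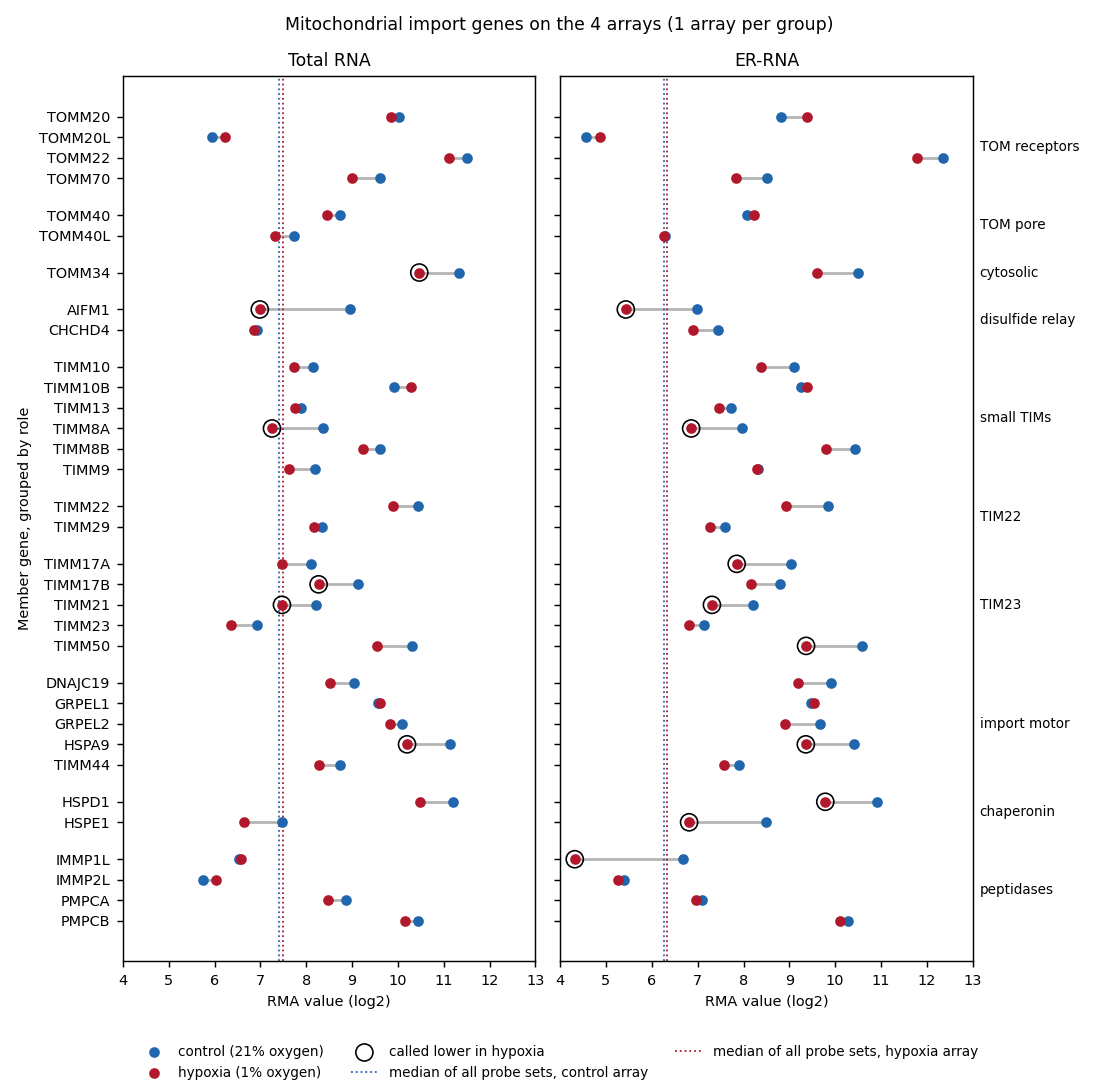
RMA value (log2, horizontal axis) of each of the 33 import genes, grouped by role, at 21% oxygen (blue) and 1% oxygen (red) in total RNA (left) and ER-RNA (right), with 1 array per point. Circles mark the 6 calls in total RNA and the 9 in ER-RNA, and dotted lines the median of all probe sets on each array. Red points lie left of blue ones for 28 of 33 genes in each panel.

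The 4 arrays were checked against their labels by lists of other genes. Of 10 genes of the hypoxia response 10 rose in total RNA, with 9 in ER-RNA, by 0.62 (SLC2A1, the exception in ER-RNA) to 1.98 (ALDOC) on the log2 scale in total RNA. Of 10 mesenchymal markers 9 passed the expression filter in total RNA, against 1 of 7 epithelial markers (KRT19) and 1 of 6 leukocyte markers (CD68, also a lysosomal gene). By the RNA lists used here, ER-RNA did not look enriched for ER-translated messages. The study itself assessed the purity of the fraction at the protein level. Its ER markers were aromatase and PDI, and its cytosolic markers GAPDH and beta-Actin. Relative to all genes expressed in both fractions, a list of 19 genes of secreted, membrane and ER proteins had a median of -1.14 in ER-RNA over total RNA under control conditions, and a list of 18 cytosolic proteins had a median of 0.89. ER-RNA values are therefore given as levels in the fraction labelled so, not as evidence of a place in the cell.

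The promoters of the members were read from RefSeq (GRCh38.p14), as 250 bases before to 50 after the start of each gene, for 31 of the 33. Short motifs were sought on both strands and are given as descriptions beside their share of all 15843 protein-coding promoters in the table. CCGGAAG, the core bound by ETS factors, was present in 11 members (35.5%, against 14.2% of all promoters). GCATGCG, the core of the NRF1 site, was present in 4 (12.9% against 5.1%) and AAGATGG, the YY1 core, in 5 (16.1% against 6.4%). The letters of the hypoxia response element ACGTG were present in 11 (35.5% against 23.7%) and GCGTG in 19 (61.3% against 44.1%), the CCAAT box in 12 (38.7% against 36.4%), and GAANNTTC, a heat shock element, in 0 (0.0% against 5.6%).  A match is a description of letters in the window, not of a bound site. The windows below show the ETS core of receptor, small TIM, TIM22 complex (TIMM29) and motor genes, and the NRF1 core of the disulfide relay genes and TIMM9, in capitals. All lie before the start of the gene and run along its strand, so a core on the other strand appears as CTTCCGG. In CHCHD4 and TIMM9 the NRF1 core overlaps its own reverse complement, 1 base apart. Of the 3 ETS cores of GRPEL2 the first 2 are shown.

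TOMM20, chr1:235128841-235128870, minus strand: gttgactgggaCCGGAAGtggcgtgtgctc
TOMM70, chr3:100401175-100401204, minus strand: tttcccttaacCCGGAAGtgatttccgccc
TIMM10, chr11:57530791-57530820, minus strand: ggtatttaattCCGGAAGcgagtttgaatc
TIMM29, chr19:10928711-10928740, plus strand: ttgggaagccaCTTCCGGtaaagttggcgc
GRPEL2, chr5:149345341-149345370, plus strand: cacactgagagCCGGAAGtgttgccttagc
GRPEL2, chr5:149345401-149345430, plus strand: ccatcgggcaaCCGGAAGcatagcgttcct
AIFM1, chrX:130165905-130165934, minus strand: ggccagctagtGCATGCGcaaatcctctcg
CHCHD4, chr3:14125002-14125031, minus strand: agtgtttctgcGCATGCGcgcggcgagacg
TIMM9, chr14:58427641-58427670, minus strand: agacacaacacGCATGCGcgccaagaaact

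No receptor or pore gene of the outer membrane gate was called in either fraction. Only 3 receptors and 2 pore genes passed the expression filter in each. Among all expressed genes 7.45% and 8.25% were called lower, so the absence of calls in so few genes is near those shares. TOMM20, a receptor for presequences, had log2 values in total RNA of 10.03 in control and 9.84 in hypoxia, and of 8.83 and 9.38 in ER-RNA. It was thus slightly lower in one fraction and higher in the other, by -0.19 and 0.55 on the log2 scale, and neither change was called. TOMM70, a receptor for carriers and other proteins without a presequence, went from 9.61 to 8.99 in total RNA, while in ER-RNA it went from 8.50 to 7.83, changes of -0.62 and -0.67 with z-scores of -2.24 and -2.26. TOMM22, the central receptor, had differences of -0.39 and -0.58. TOMM20L, a paralog of TOMM20, lay below the 50% quantile on all 4 arrays, at 5.94 and 6.23 in total RNA and 4.57 and 4.86 in ER-RNA.

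TOMM40, the pore itself, was at 8.73 in control and 8.44 in hypoxia in total RNA, and at 8.08 and 8.23 in ER-RNA. Its paralog TOMM40L was at 7.72 and 7.31, and at 6.29 and 6.26. Neither was called. The small TOM subunits have no probe set of their own. The probe set that names TOMM5 and FBXO10 had log2 differences of -0.21 and -0.48 in the 2 fractions, the one for TOMM6 and PRICKLE4 0.01 and 0.21, and the one for TOMM7 and C4orf46 -0.11 and 0.19. TOMM34, a cytosolic co-chaperone that holds precursors before import, was among the highest members, at 11.32 in control and 10.47 in hypoxia in total RNA. It fell there to 0.552 of control, and in ER-RNA, at 10.49 and 9.60, the ratio of 0.540 had a z-score of -2.77 and was not called. The call in total RNA was close to the limit, with a z-score of -3.15, and was lost after quantile normalization or loess within the pair.

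AIFM1 fell in both fractions, with the largest difference of any member in total RNA. The gene encodes apoptosis-inducing factor, a flavoprotein that anchors CHCHD4 in the intermembrane space. Its log2 value went from 8.96 to 6.99 in total RNA, while in ER-RNA it went from 7.00 to 5.43, and its z-scores of -8.83 and -4.73 were beyond those of any other member in total RNA and of all but HSPE1 in ER-RNA. In hypoxia it lay below the quantile in both fractions, and neither call remained when both arrays had to lie above it. CHCHD4, the oxidoreductase of the relay, was at 6.93 and 6.86 in total RNA, below the quantile on both arrays, and at 7.43 and 6.90 in ER-RNA, a change of -0.53 that was not called. GFER, the sulfhydryl oxidase that recharges CHCHD4 and is no member by symbol, had changes of 0.07 and -0.23.

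Among the 6 small TIM chaperones only TIMM8A was called, lower in both fractions. That was 16.7% of them in each fraction, beside 7.45% and 8.25% of all expressed genes. A single call in 6 genes cannot be told from those shares. TIMM8A, the gene of deafness-dystonia syndrome, went from 8.36 to 7.25 in total RNA, while in ER-RNA it went from 7.97 to 6.86, ratios of 0.462 and 0.461. For its paralog TIMM8B the answer depended on the probe set. The one taken here went from 9.61 to 9.24 and from 10.44 to 9.79, ratios of 0.773 and 0.639 that were not called, while the other, whose number does not lie among those of chromosome 11, went from 9.34 to 8.47 and from 10.33 to 9.26 and was called lower in both fractions. TIMM9 and TIMM10 form a hexamer. TIMM10 had differences of -0.42 and -0.72, and TIMM9 of -0.55 in total RNA but -0.01 in ER-RNA, none of which was called. The TIMM9 value in ER-RNA turned positive after quantile normalization (0.14) or loess (0.035). TIMM13, the partner of TIMM8A, had changes of -0.11 and -0.27. TIMM10B, which docks the chaperones on the TIM22 complex, was the only small TIM higher in hypoxia, at 9.92 and 10.29 in total RNA and 9.25 and 9.38 in ER-RNA, and was not called.

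For the TIM22 complex, TIMM22, the carrier translocase channel, was at 10.44 and 9.90 in total RNA and at 9.85 and 8.93 in ER-RNA, where the change of -0.92 with a z-score of -2.84 lay just short of a call. TIMM29, its accessory subunit, was at 8.35 and 8.18, and at 7.60 and 7.27.

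TIM23 complex genes made up 5 of the 15 calls of both fractions, with TIMM21 counted in each. All 5 measured genes were lower in both fractions. Of the 4 expressed in total RNA 2 fell, and of the 5 expressed in ER-RNA 3 fell. Among all expressed genes 7.45% and 8.25% were called lower. TIMM21, which links TIM23 to the TOM complex and to respiratory chain assembly, fell in both, from 8.20 to 7.47 and from 8.21 to 7.31, ratios of 0.601 and 0.538. Both calls were near the limit, with z-scores of -3.19 and -3.22. TIMM50, the receptor that hands presequences to the channel, went from 10.30 to 9.54 in total RNA (0.592 of control, not called) and fell from 10.58 to 9.37 in ER-RNA (0.430). The paralogs TIMM17A and TIMM17B, alternative subunits beside the channel, were called in different fractions. TIMM17A was at 8.10 and 7.48 in total RNA and fell from 9.03 to 7.85 in ER-RNA, while TIMM17B fell from 9.12 to 8.27 in total RNA and was at 8.79 and 8.17 in ER-RNA. Their ratios in total RNA were 0.652 and 0.555 and in ER-RNA 0.441 and 0.653, and whether they differ could not be tested.

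TIMM23, the channel, is measured poorly by the probe set that names it alone, which lay at 6.93 and 6.36 in total RNA and at 7.14 and 6.81 in ER-RNA. Its 2 other probe sets also name the near-identical copy TIMM23B and had far more signal. The brighter of them went from 11.80 to 10.90 in total RNA, while in ER-RNA it went from 11.46 to 10.16, ratios of 0.534 and 0.405, and both probe sets were called lower in both fractions. Among all expressed probe sets 6.39% (total RNA) and 7.31% (ER-RNA) were called lower. The signals of these genes cannot be separated there.

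Of the import motor HSPA9, the matrix HSP70 (mortalin), fell in both fractions, from 11.13 to 10.20 in total RNA, while in ER-RNA it went from 10.40 to 9.36, ratios of 0.524 and 0.485. Both calls were near the limit, with z-scores of -3.36 and -3.24, and the one in ER-RNA was lost after quantile normalization within the pair. The nucleotide exchange factors of HSPA9 are GRPEL1 and GRPEL2. GRPEL1 was at 9.57 and 9.60 in total RNA and at 9.48 and 9.54 in ER-RNA, and GRPEL2 at 10.10 and 9.83 and at 9.67 and 8.92, where the change of -0.75 had a z-score of -2.32. TIMM44, which tethers HSPA9 to the channel, had changes of -0.44 and -0.34, and DNAJC19, a J-domain partner, -0.53 and -0.72. The probe set of PAM16, shared with the read-through gene CORO7-PAM16, had differences of 0.02 and 0.04. HSPA9 was the only one called of the 5 motor genes measured alone, 20% in each fraction. Among all expressed genes 7.45% and 8.25% were called lower, and 1 call in so few genes cannot be told from those shares.

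HSPD1 and HSPE1, the chaperonin HSP60 and its lid HSP10, fell in ER-RNA and were not called in total RNA. HSPD1 went from 11.20 to 10.48 in total RNA (0.605), while in ER-RNA it went from 10.91 to 9.78 (0.457). HSPE1 went from 7.48 to 6.63 in total RNA (0.557), while in ER-RNA it went from 8.48 to 6.81 (0.315). The change of HSPE1 in total RNA was larger than that of HSPD1, but at its low level a call needs a larger change, and its z-score was -2.09. In ER-RNA HSPE1 had the largest z-score of all members, -6.12, and its call held under each of the 13 alternatives tried.

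Of the peptidases, the 2 subunits of the matrix processing peptidase stayed within the limits. PMPCA was at 8.87 and 8.47 in total RNA and at 7.09 and 6.96 in ER-RNA, and the catalytic PMPCB at 10.43 and 10.15 and at 10.28 and 10.12. IMMP1L and IMMP2L, the inner membrane peptidase, lay low. IMMP1L was at 6.54 and 6.57 in total RNA, below the quantile on both arrays, and fell from 6.68 to 4.32 in ER-RNA, the largest log2 change of any member (-2.36). That call rests on 1 array above the quantile and was lost when both had to lie above it. IMMP2L was at 5.76 and 6.04 and at 5.39 and 5.26, below the quantile on all 4 arrays.

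**Figure D2:**
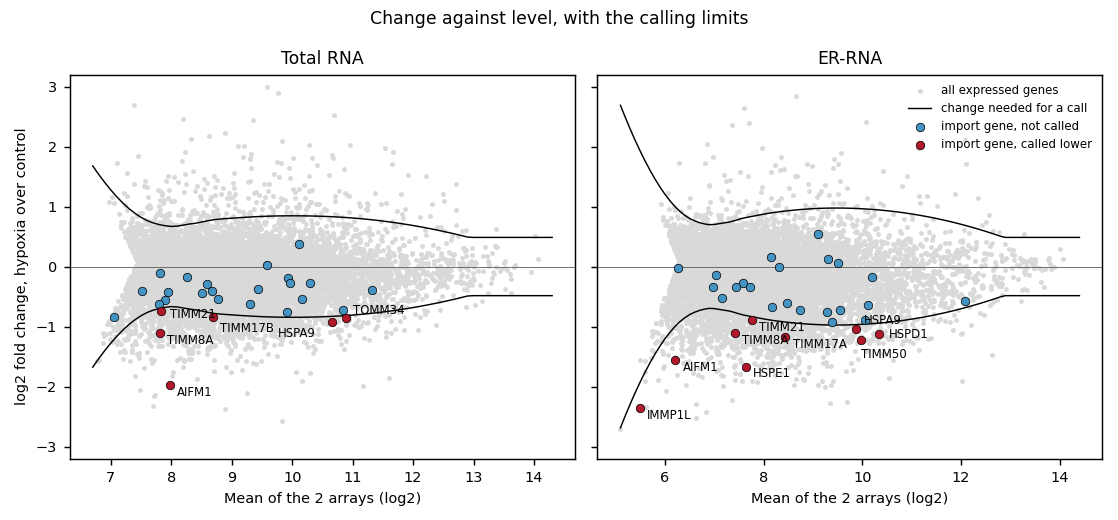
log2 fold change (hypoxia over control, vertical axis) against the mean of both arrays (log2, horizontal axis) for all expressed genes (grey) and the import genes (blue where not called, red where called lower), with lines at the change a call requires. TOMM34, TIMM21 and TIMM17B lie close to the line in total RNA, and the line widens at low levels, where HSPE1 in total RNA and IMMP1L in ER-RNA are found.

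**Figure D3:**
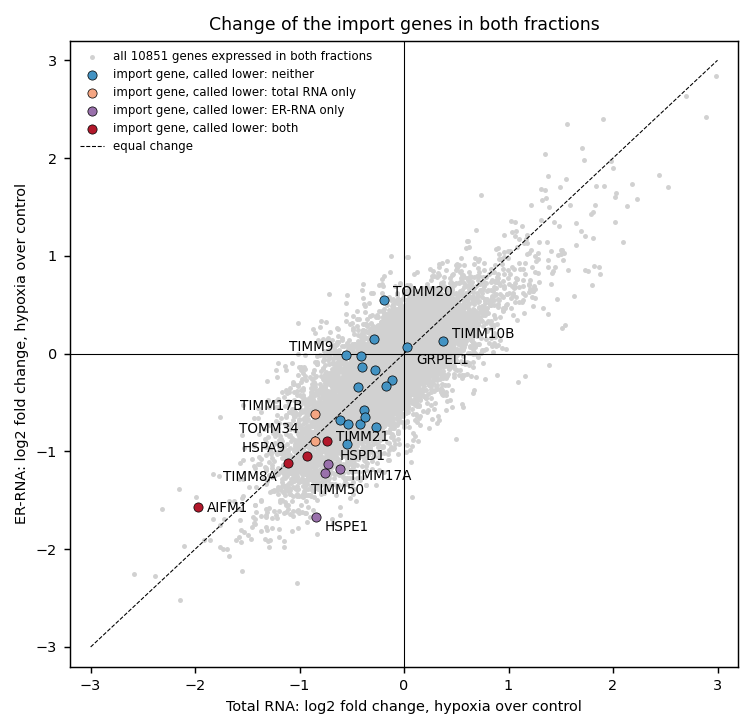
log2 fold change in ER-RNA (vertical axis) against that in total RNA (horizontal axis) for the 28 import genes and all 10851 genes expressed in both fractions. AIFM1 lies lowest on the total RNA axis (-1.97), HSPE1 lies below the line of equal change and TOMM20 above it.

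The changes of the fractions were set side by side. The log2 change in ER-RNA minus that in total RNA had a median of -0.13 over the 28 members expressed in both fractions, against -0.008 over all 10851 genes, and 64.3% of the members against 51.5% of all genes had the lower value in ER-RNA. With all 4 arrays quantile normalized the medians were 0.024 and 0.016, so no direction can be given. The largest differences among these 28 were those of HSPE1 (-0.82) and TOMM20 (0.74). IMMP1L, which was not expressed in total RNA, had -2.39.

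In ER-RNA over total RNA, centred on the median gene expressed in both, the import genes stood above most genes. Their median was 0.66 at 21% oxygen and 0.68 at 1% oxygen on the log2 scale, and 82.1% and 85.7% of the 28 lay above the median gene. HSPE1 was highest in control (2.02), followed by TIMM10 (1.97), TIMM17A (1.96), DNAJC19 (1.89), TOMM22 (1.87) and TIMM8B (1.84). AIFM1 (-0.94), PMPCA (-0.76), TOMM40L (-0.42), TOMM20 (-0.18) and TOMM70 (-0.08) were below the median gene. In hypoxia TOMM20 was at 0.56, above it. Of the groups compared, the 68 mitochondrial ribosomal proteins expressed in both fractions had medians of 1.18 and 1.07, the 67 respiratory complex subunits 1.44 and 1.41 and the 8 subunits of TRiC, the cytosolic chaperonin, 0.85 and 0.91.

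**Figure D4:**
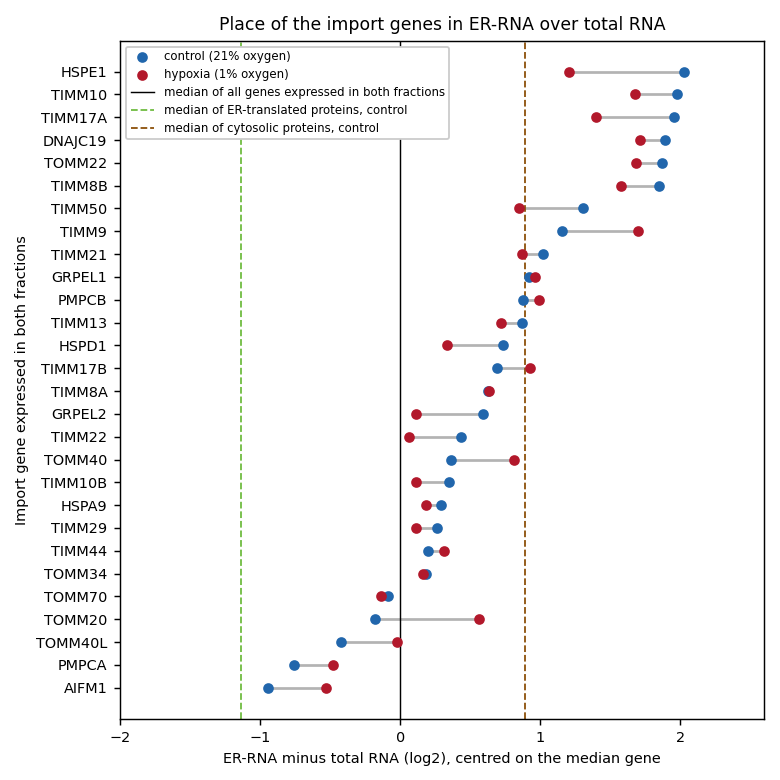
ER-RNA minus total RNA (log2, horizontal axis), centred on the median of all genes expressed in both fractions, for the 28 import genes expressed in both, at 21% oxygen (blue) and 1% oxygen (red). Dashed lines give the medians of 19 genes of ER-translated proteins (-1.14) and 18 of cytosolic proteins (0.89) in control. The cytosolic list lay at higher levels on the arrays. In control 23 of the 28 genes lie right of 0.

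The import genes were set beside other genes for mitochondrial proteins and the cytosolic chaperonin, and no difference between the lists was tested. Among expressed genes the median log2 fold change in total RNA and ER-RNA was -0.49 and -0.65 for the import genes, -0.46 and -0.62 for mitochondrial ribosomal proteins, -0.45 and -0.56 for respiratory complex subunits, -0.76 and -0.89 for TRiC and -0.06 and -0.04 for all genes. Calls of a fall were made for 13 mitochondrial ribosomal proteins in total RNA and 19 in ER-RNA, for 10 and 13 respiratory subunits and for 4 and 3 TRiC subunits, and none of these genes rose. The share of expressed genes called lower was 50.0% (total RNA) and 37.5% (ER-RNA) for TRiC, 21.4% and 29.0% for the import genes, 19.1% and 26% for mitochondrial ribosomal proteins, 14.7% and 18.1% for respiratory subunits, and 7.45% and 8.25% for all genes.

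Of 16 other genes of import, sorting and membrane insertion, 4 fell in total RNA, with 2 in ER-RNA, shares of 25% and 12.5% beside 7.45% and 8.25% of all expressed genes. SAMM50, which inserts barrel proteins such as TOMM40 into the outer membrane, fell to 0.504 and 0.511 of control in the 2 fractions, and TIMMDC1, a complex I assembly factor related to TIMM17 and TIMM23, to 0.462 and 0.482. ROMO1 and DNAJC11 fell in total RNA, to 0.544 and 0.554. Of 5 other mitochondrial chaperones TRAP1, the mitochondrial HSP90, DNAJA3, a J-domain partner of HSPA9, and BCS1L, an assembly factor of complex III, fell in both fractions, with TRAP1 at 0.410 and 0.422 of control. Those chaperones were 75% and 60% of the expressed genes of their list. Of 10 mitochondrial proteases OMA1 fell in total RNA, to 0.406 of control, and none in ER-RNA. With 1 of 10 and 0 of 10 the proteases stood near the shares of all genes. Of the 7 genes of the cristae junction complex APOO, a lipid-binding subunit, fell in total RNA, to 0.541, and none in ER-RNA. That was 14.3% of this short list in total RNA.

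Of 9 cytosolic chaperones that deliver precursors, all were lower in both fractions, where 55.7% and 52.5% of all expressed genes were lower. Calls were made for 22.2% of them in total RNA and 44.4% in ER-RNA, beside 7.45% and 8.25% of all expressed genes. HSPA4 and STIP1 fell in both, HSPA4 to 0.471 and 0.380 and STIP1 to 0.446 and 0.402, and DNAJA1 and HSP90AA1 fell in ER-RNA, to 0.490 and 0.530. Of the 9 measured substrates of the disulfide relay CMC2 fell in ER-RNA, to 0.530. That was 11.1% of the list, near the share of all genes, and none fell in total RNA. Of the 9 measured carriers SLC25A12, the aspartate-glutamate carrier, and SLC25A20, the carnitine carrier, fell in both fractions, SLC25A12 to 0.346 and 0.282 and SLC25A20 to 0.423 and 0.467, and SLC25A13 in ER-RNA, to 0.525. No gene of these lists rose. SLC25A1, the citrate carrier, was the highest of the carriers in hypoxia over control, at 0.29 and 0.49 on the log2 scale.

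**Figure D5:**
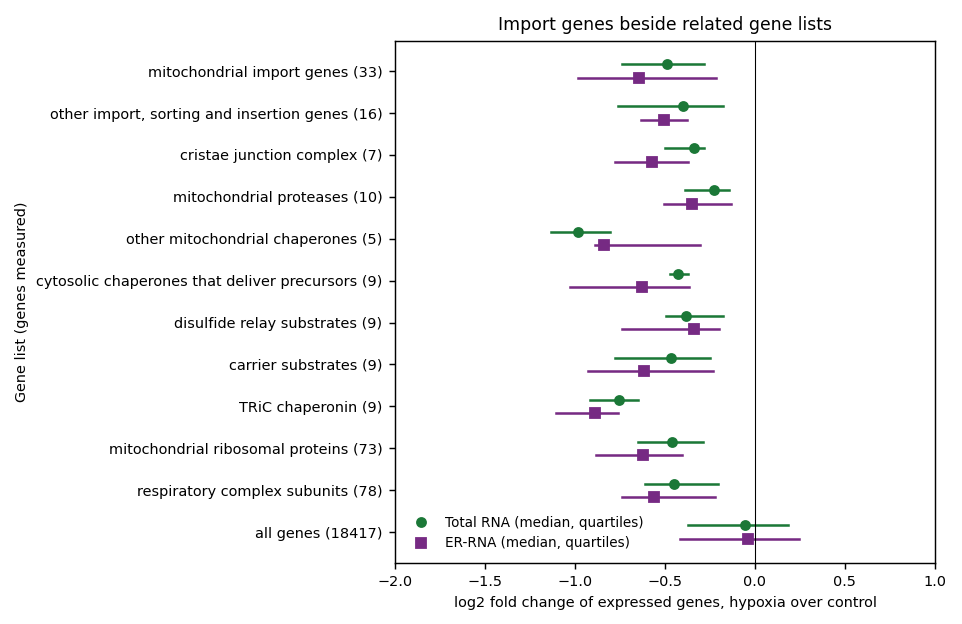
For the import genes and the 10 related lists named beside the axis, points give the median log2 fold change (hypoxia over control, horizontal axis) of its expressed genes and lines the quartiles. Total RNA has circles, ER-RNA squares, and brackets hold how many genes were measured. The medians of the lists drawn lie below those of all genes (-0.06 and -0.04).

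A head-to-head neighbour, a protein-coding gene on the other strand whose start lies within 1000 bases upstream, was found for 10 of the 31 members (32.3%), against 10.3% of all genes of the table. HSPD1 and HSPE1 are each other's neighbour, with starts 105 bases apart on chromosome 2 (197500274 and 197500379), and both fell in ER-RNA. The neighbours of the other members with a measured value were not called in either fraction. Among all expressed genes 7.45% (total RNA) and 8.25% (ER-RNA) were called lower. The absence of calls in so few neighbours is near those shares. TIMM17B fell in total RNA, with a log2 fold change of -0.85, while PQBP1, 162 bases away, had -0.01. TIMM21 fell in both fractions and FBXO15, 689 bases away, had 0.04 and -0.11 at a level below the quantile. ELP4, beside IMMP1L, had log2 differences of -0.51 and -0.82, and ENTR1, beside PMPCA, of -0.47 and -0.20.

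The probe sets of 2 members are numbered among those of another chromosome than the gene's own. For TOMM22 the one taken lies among probe sets of chromosome 10, while the other, among those of chromosome 22 as the gene is, was at 8.70 and 8.52 in total RNA and 9.14 and 8.77 in ER-RNA. For DNAJC19 the one taken lies among chromosome 14, and the other, on chromosome 3 as the gene is, had changes of -0.46 and -0.66. Both probe sets of each gene were lower in hypoxia in both fractions, and none was called.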

How the data were processed

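RNA of HT1080 cells was measured on Affymetrix Human Gene 1.0 ST arrays. The authors deposited log2 values that they had made by RMA, with Partek 6.4 named in the submitters' processing notes. No source used here says whether all 4 arrays went through RMA together. Their medians were 7.41 and 7.49 in total RNA and 6.25 and 6.34 in ER-RNA, so hypoxia was compared with control within each fraction. Of 33297 probe sets 19460 name 1 gene in the platform annotation, and 19429 of these were matched by gene identifier to RefSeq for current symbols and biotypes.

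Calls followed the thresholds of the methods, with R 4.3.3 and limma 3.58.1. The loess curve (span 0.75, degree 2) of the SD over the pair against the mean was fitted on all probe sets that passed the expression filter. The study's methods cite the model and state that it was fitted per group, treated and control apart. With 1 array a group holds no SD, so the curve used here departs from that. It takes the SD over the control and hypoxia arrays. The calls are not those of the study. In each fraction the study counted more genes higher and fewer lower, from its own set of expressed genes. SLC2A1 (GLUT1), not called here in ER-RNA, was significant there in the study. With 1 array per group there is no test, and precision is limited by how few arrays there are. The calling step was run on simulated data only to check the code. The noise there came from the scaled MAD, not from the SD curve, so it gives no error rate for the members. The members and the gene lists were chosen with earlier results of these data known. Values on all 4 arrays were given for called members, the extremes of each role and related gene pairs, and for other lists the called genes. Alternatives covered normalization, filter, SD, fold threshold, probe set and symbols, and 1 was added after seeing the data. Protein sequences were not used here.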

Additional observations from a re-analysis of the deposited data

Results flagged for a closer look

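For 4 members the log2 fold change had opposite signs in total RNA and ER-RNA, and with 1 array per condition the differences were not tested. ER-RNA minus total RNA was 0.74 for TOMM20 (-0.19 in total RNA, 0.55 in ER-RNA), 0.44 for TOMM40 (-0.29 and 0.15), -2.39 for IMMP1L (0.03 and -2.36) and -0.41 for IMMP2L (0.28 and -0.13). The IMMP1L change in ER-RNA was called, the others were not, and its small value in total RNA turned negative under each other scaling within the pair. IMMP1L in total RNA and IMMP2L in both fractions lay below the expression filter.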

How the results depend on the processing

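The 6 falls in total RNA, and the 9 falls in ER-RNA (7.45% and 8.25% of all genes), became 2 and 5 with a 75% quantile filter (6.25% and 8.81%), 2 and 2 where the scaled MAD gave the SD (1.81% and 2.01%), and 14 and 19 by fold change alone (18.6% and 21.4%), where 1 member, TOMM20, was also higher in ER-RNA. With a fold threshold of 2 they were 2 and 8 (3.3% and 5.57%). The 4 members that fell in both became 2 after quantile normalization, 1 when both arrays had to pass, 1 with the 75% filter, 0 with the scaled MAD, 13 by fold change alone and 2 at a fold of 2. The median in ER-RNA (-0.65) was -0.52 after quantile normalization. In the 13 alternatives the medians of the expressed members stayed below 0 and below those of all genes in both fractions. ER-RNA over total RNA at 21% oxygen (0.66) was 0.47 after quantile normalization of all arrays and 0.43 after loess. The median difference in change between the fractions (-0.13) reversed to 0.024 after quantile normalization. Of the values of the 33 members in both fractions under these alternatives, 793 kept their direction and call, 33 lost a call, 25 gained one and 7, none of them called, changed sign. With median centring GRPEL1 was at -0.027 (total RNA) and -0.023 (ER-RNA). IMMP1L in total RNA was at -0.078 after quantile normalization, -0.025 after median centring and -0.072 after loess, and TIMM9 in ER-RNA at 0.144 after quantile normalization and 0.035 after loess. The causes were not tested. No paired analysis was possible because each group has 1 array.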
